A study of Mus musculus with 54 samples.

Results

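A set of 10 genes for lipid droplet proteins and for triglyceride breakdown was followed in the liver of mice given di-isononyl phthalate (DINP), a plasticizer, during high-fat feeding. The 10 genes were chosen by name: Plin2, Plin4, Plin5, Cidea, Cideb, Cidec, Pnpla2, G0s2, Hsd17b11 and Hsd17b13. Each stood on 1 of the 20162 rows of the deposited expression table. All mice were male C57BL/6J, received the high-fat diet from the age of 8 weeks, and were exposed orally for 20 weeks. The 14 control mice had a placebo gelatin pellet without DINP, while 13 mice received the low dose of 1.5 mg/kg bw/d DINP, 13 the middle dose of 15 mg/kg bw/d, and 14 the high dose of 150 mg/kg bw/d. High-fat feeding was thus common to the control and DINP groups, and no group on ordinary chow was analysed here. RNA was taken from the medial liver lobe, a tissue of mixed cells, so that a change in the number of a cell type and a change in RNA per cell cannot be told apart.

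In liver cells, triglyceride is stored in lipid droplets, which have a core of neutral lipid and a coat of proteins. Perilipins (Plin2, Plin4, Plin5) sit on the droplet surface and regulate the access of lipases. CIDE proteins (Cidea, Cideb, Cidec) gather where droplets touch and let lipid pass into the larger droplet, and Cideb also takes part in the lipidation of secreted lipoproteins. Pnpla2 encodes adipose triglyceride lipase (ATGL), which starts triglyceride hydrolysis, and G0s2 encodes its protein inhibitor. Hsd17b11 and Hsd17b13 encode closely related short-chain dehydrogenases that are targeted to droplets. Several of these genes, among them Plin2, G0s2 and Hsd17b11, are known targets of the fatty acid receptor PPARalpha in liver.

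Expression was measured in 54 livers with a 3′ RNA-seq library, which reads the ends of polyadenylated transcripts. The values are TPM, a length-corrected share of all transcripts, that the authors rounded and scaled between mice, and they no longer hold the number of reads. In every mouse the summed values lay between 747258 and 1076439. The lowest sum belonged to control mouse 8, and results that rested on this mouse are given with and without it. The liver label was checked with 10 hepatocyte markers, all of which were in the table, and whose summed value was at least 24840 in every mouse.

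Among control mice, Plin2 had the highest level of the 10 genes on the TPM scale (335 ± 82.3, mean ± SD, n = 14). It was followed by Hsd17b13 (226 ± 50.7), G0s2 (149 ± 59.1), Hsd17b11 (136 ± 15.9) and Cideb (105 ± 13.8). Lower levels were measured for Pnpla2 (30.3 ± 3.95) and Plin5 (17.9 ± 4.28). The medians of the remaining genes were 5.79 for Cidec, 1.03 for Cidea and 0 for Plin4. Ranges of the control mice overlapped between all neighbours in this order except Cideb, whose lowest mouse was at 83.3, and Pnpla2, whose highest mouse was at 39.4. Plin2 was higher than 98.5% of all rows, and Plin4 was higher than 33.2%. The plot of values by mouse shows all 10 genes over the 4 groups.

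**Figure D1:**
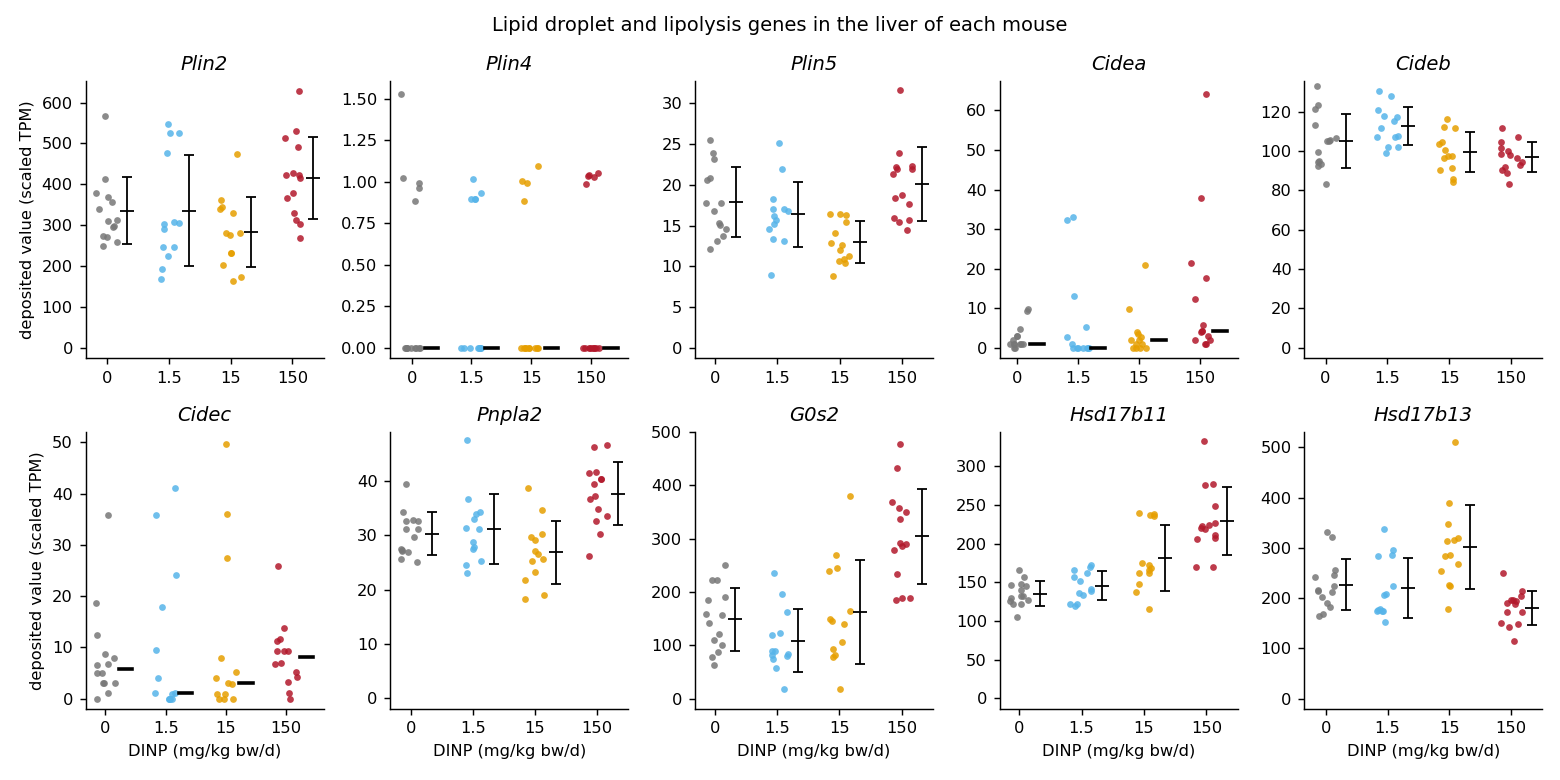
Deposited value (scaled TPM, linear axis) of 10 lipid droplet and lipolysis genes by DINP dose, 1 point per mouse. Black marks are the mean ± SD, or the median alone for Plin4, Cidea and Cidec, which were listed at 0 in some mice; all 14 mice at the high dose were above the highest control mouse for Hsd17b11.

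The test was limma, run on log2(value + 1) for 11431 rows with a mean of at least 1 and with Benjamini-Hochberg adjusted p-values. Calls needed an adjusted p below 0.05, and DEGs are calls whose log2 fold change (log2FC) lay outside -0.5 to 0.5. Of the 10 genes, 9 were tested, since the mean of Plin4 was below 1. None of the 9 genes was called at the low dose, and none had an unadjusted p under 0.05, where 1.20% of all tested rows were called and 0.367% were DEGs. Of the same 9 genes, 3 were called at the middle dose, against 14.2% of all rows, and 0 were DEGs, against 3.72% of all rows. The 3 were Hsd17b11 and Hsd17b13, which rose, and Plin5, which fell. Both genes called at the high dose were DEGs that rose, Hsd17b11 and G0s2, where 2.17% of all rows were called and 0.840% were DEGs. The median log2FC of the 9 genes was -0.05, -0.08 and 0.30 in dose order, and that of all tested rows was 0.00, 0.00 and -0.01. The 3 comparisons share the control mice.

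**Figure D2:**
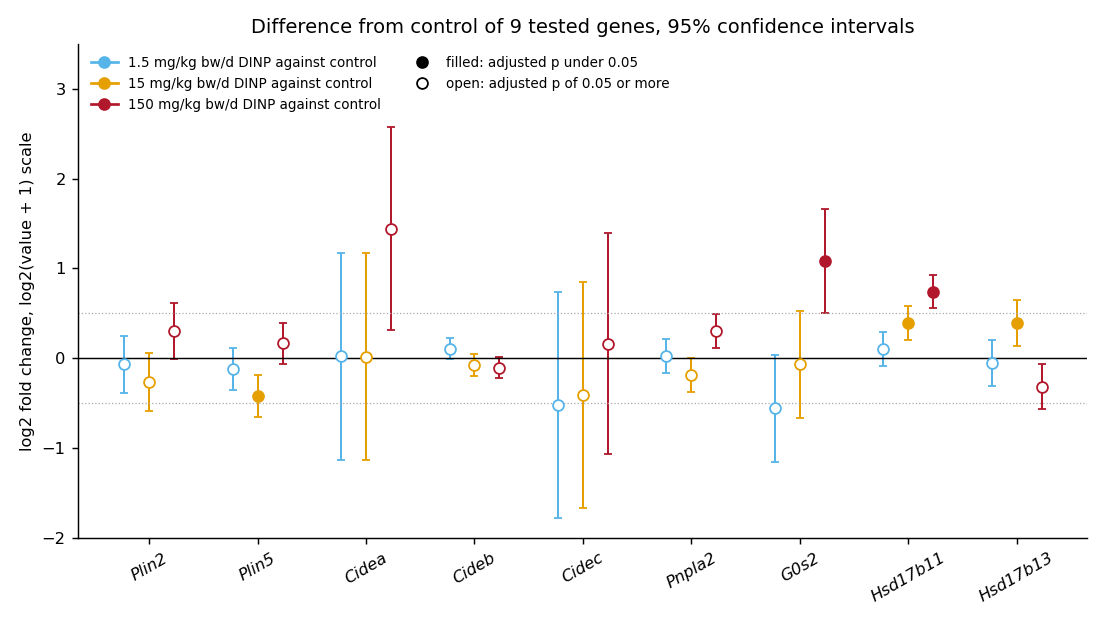
Log2 fold change against control of the 9 tested genes, on the log2(value + 1) scale, with 95% confidence intervals from limma; filled points have an adjusted p under 0.05 and dotted lines mark 0.5 in either direction. Hsd17b11 was called at the middle and high doses, G0s2 at the high dose, and Plin5 and Hsd17b13 at the middle dose.

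Hsd17b11 and Hsd17b13, the droplet dehydrogenases, lie next to each other on the minus strand of chromosome 5 (GRCm38, chr5:103989762-104021919 and chr5:103955440-103977410). Despite this shared locus, their values moved in opposite directions between the middle and high doses. Hsd17b11 ranged from 105 to 166 in control mice (median 132), from 120 to 172 at the low dose (median 141), from 115 to 240 at the middle dose (median 168) and from 170 to 333 at the high dose (median 221). No mouse of the high-dose group overlapped with the control mice, and 8 of 13 mice at the middle dose were above the highest control mouse. Of these, mice 5, 6, 8 and 9 stood apart at 235.5 to 240.1, and the others were between 166.3 and 174.5. The array weights of mice 5, 6, 8 and 9 were 0.53, 0.41, 0.37 and 0.66. Mouse 7, the lowest of the group for Hsd17b11, had a weight of 0.30. The middle-dose call against control held whichever single mouse was left out, but leaving out mice 5, 6, 8 and 9 together was not tested. The log2FC against control was 0.10 ± 0.094 (SE) at the low dose (adjusted p = 0.728), 0.39 ± 0.094 at the middle dose (adjusted p = 0.0031) and 0.74 ± 0.093 at the high dose (adjusted p = 2.35e-07; limma). Direct comparison of the doses also called the step from the low to the middle dose (log2FC 0.29, adjusted p = 0.0247) and that from the middle to the high dose (log2FC 0.35, adjusted p = 0.00555). The former step was lost on leaving out mouse 5, 6, 8 or 9 of the middle-dose group in turn (adjusted p up to 0.0576), and under quantile normalization, array weights or only the 2 groups (adjusted p = 0.0598, 0.0616 and 0.0619).

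Hsd17b13, the liver-enriched paralog studied in fatty liver disease, ranged from 164 to 333 in control mice (median 214) and from 152 to 338 at the low dose (median 206). At the middle dose it ranged from 179 to 512 (median 287), and at the high dose from 114 to 249 (median 190). The control median was exceeded by 12 of 13 mice at the middle dose, but by only 1 of 14 at the high dose. Against control, the log2FC was -0.05 ± 0.127 at the low dose (adjusted p = 0.922), 0.40 ± 0.127 at the middle dose (adjusted p = 0.0278) and -0.32 ± 0.125 at the high dose (adjusted p = 0.203, unadjusted p = 0.0142). The call at the middle dose was lost under quantile normalization (log2FC 0.31, adjusted p = 0.124), after rescaling to equal sums (log2FC 0.34, adjusted p = 0.118), with only the 2 groups (adjusted p = 0.0505) and on leaving out control mouse 7 or mouse 5 or 7 of the dose group (adjusted p from 0.0506 to 0.0758). The difference between the middle- and high-dose groups was larger: the log2FC was -0.71 ± 0.127 (adjusted p = 5.2e-05), and all 14 high-dose mice were below the median of the middle dose.

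Pnpla2 (chr7:141455198-141460743, plus strand), the lipase gene, ranged from 25.1 to 39.4 in control mice (median 30.5), from 23.1 to 47.6 at the low dose (median 31.3), from 18.4 to 38.8 at the middle dose (median 26.6) and from 26.1 to 46.6 at the high dose (median 38.4). The highest control mouse was exceeded by 7 of 14 high-dose mice. Pnpla2 did not pass the adjusted threshold at any dose against control, where the log2FC was 0.03 ± 0.095, -0.18 ± 0.095 and 0.30 ± 0.093 in dose order (adjusted p = 0.949, 0.201 and 0.0725). The paper used a different test, DESeq2, and names Pnpla2 among the genes significantly raised at the high dose. The 95% interval at the high dose was 0.11 to 0.49, and the adjusted p ranged from 0.0247 with array weights and 0.0273 with only the 2 groups to 0.275 after rescaling to equal sums (log2FC 0.21). It was also called without control mouse 11 (adjusted p = 0.0459) or high-dose mouse 3 (adjusted p = 0.0312). Compared directly, Pnpla2 was higher at the high than at the middle dose (log2FC 0.49 ± 0.095, adjusted p = 0.000167).

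G0s2 (chr1:193272161-193273217, minus strand), the lipase inhibitor, showed a wider range. It ranged from 63.5 to 250.1 in control mice (median 149), from 18.8 to 236 at the low dose (median 88.7), from 17.4 to 380.4 at the middle dose (median 145) and from 185 to 478 at the high dose (median 291). All 14 high-dose mice were above the control median and 10 were above the highest control mouse, but the ranges overlapped. G0s2 rose at the high dose by a log2FC of 1.08 ± 0.290, or 2.12-fold on this scale with a 95% interval of 1.41 to 3.16 (adjusted p = 0.0299; limma). This call was lost when 1 of 3 mice was left out, namely control mouse 8 (log2FC 1.00, adjusted p = 0.0601), control mouse 9 (log2FC 1.02, adjusted p = 0.0532) or high-dose mouse 4 (log2FC 1.03, adjusted p = 0.0502), and without the filter on low rows (adjusted p = 0.0502). It was -0.56 ± 0.295 at the low dose (adjusted p = 0.436) and -0.07 ± 0.295 at the middle dose (adjusted p = 0.915). Comparisons with the lower doses gave a log2FC of 1.64 ± 0.295 against the low dose (adjusted p = 0.000289) and 1.15 ± 0.295 against the middle dose (adjusted p = 0.00366), and both were called whichever mouse was left out.

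Inhibitor and lipase were also set against each other within each mouse, as log2(value + 1) of G0s2 minus that of Pnpla2. This difference had a mean of 2.16 ± 0.675 in control mice, 1.58 ± 0.965 at the low dose, 2.28 ± 1.11 at the middle dose and 2.94 ± 0.461 at the high dose (SD). The lowest mouse of the low- and middle-dose groups was at -0.71 and -0.74, and the lowest high-dose mouse was at 2.30. A negative difference means a lower value for G0s2 than for Pnpla2 on the length-corrected TPM scale, which need not equal fewer transcripts. No test was run on this difference.

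Plin2 (chr4:86648386-86670060, minus strand), the main droplet coat protein of hepatocytes, ranged from 249 to 567 in control mice (median 311), from 168 to 548 at the low dose (median 304), from 165 to 474 at the middle dose (median 280.2) and from 268 to 629 at the high dose (median 419.8). At the high dose, 12 of 14 mice were above the control median and 1 was above the highest control mouse. At the low dose the mice were spread out: 4 stood between 477 and 548 and the other 9 were below the control median. Plin2 passed the threshold at no dose against control (log2FC -0.07 ± 0.160, -0.27 ± 0.160 and 0.30 ± 0.157, adjusted p = 0.915, 0.285 and 0.377). The high-dose interval of -0.01 to 0.62 did not exclude a DEG-sized rise. Between the middle and high doses, however, Plin2 differed by a log2FC of 0.57 ± 0.160 (adjusted p = 0.00776), and 13 of 14 high-dose mice were above the median of the middle dose.

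Plin5 (chr17:56111601-56117596, minus strand), which ties droplets to mitochondria, ranged from 12.2 to 25.5 in control mice (median 17.3), from 8.93 to 25.1 at the low dose (median 16.2), from 8.85 to 16.4 at the middle dose (median 12.7) and from 14.5 to 31.6 at the high dose (median 20.03). All 13 mice at the middle dose were below the control median and 6 were below the lowest control mouse. Plin5 fell by 0.43 on the log2 scale at this dose (SE 0.117, adjusted p = 0.00964), and this call held whichever mouse was left out. The log2FC was -0.12 ± 0.117 at the low dose (adjusted p = 0.742) and 0.17 ± 0.115 at the high dose (adjusted p = 0.5502). Relative to the middle dose, the high-dose group was higher by a log2FC of 0.59 ± 0.117 (adjusted p = 2e-04). Plin4, its neighbour on chromosome 17 (chr17:56100591-56109803) and a perilipin of adipose and muscle, was above 0 in 5, 5, 4 and 5 mice in dose order and never exceeded 1.53, so that no difference was detectable at this level.

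Cidea, which promotes large droplets and is better known from adipose tissue, had low and very uneven values. In control mice it ranged from 0 to 9.94 (median 1.03), at the low dose from 0 to 33.1 (median 0), at the middle dose from 0 to 21.1 (median 1.99) and at the high dose from 0.988 to 64.2 (median 4.21). It was listed at 0 in 2, 7, 4 and 0 mice, and 3, 1 and 5 mice of the DINP groups exceeded the highest control mouse. The log2FC at the high dose was 1.44 ± 0.564, the largest among the 9 genes, but it did not pass adjustment (adjusted p = 0.196, unadjusted p = 0.0134, 95% interval 0.31 to 2.57). At the low and middle doses the log2FC was 0.02 ± 0.574 in both (adjusted p = 0.993 and 0.988), and its sign turned with a pseudocount of 0.1.

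Cidec (chr6:113424634-113435760, minus strand), which drives droplet fusion and is also known as FSP27, ranged from 0 to 35.9 in control mice (median 5.79), from 0 to 41.1 at the low dose (median 1.03), from 0 to 49.6 at the middle dose (median 2.98) and from 0 to 25.9 at the high dose (median 8.08). It was not called at any dose (log2FC -0.53 ± 0.627, -0.41 ± 0.627 and 0.16 ± 0.615, adjusted p = 0.804, 0.721 and 0.946). Since the interval at the high dose ran from -1.07 to 1.40, neither a 2-fold rise nor a 2-fold fall was excluded. Cideb (chr14:55754050-55758458, minus strand), the CIDE protein of normal liver, varied little, with a coefficient of variation of 13.1% in control mice. Its group means were 105 ± 13.8, 113 ± 9.84, 99.3 ± 10.1 and 97.0 ± 7.68 in dose order. No dose was called against control (log2FC 0.11 ± 0.059, -0.08 ± 0.059 and -0.11 ± 0.058, adjusted p = 0.457, 0.432 and 0.415), but after rescaling to equal sums Cideb was called at the high dose (log2FC -0.20, adjusted p = 0.0329). Mice at the middle and high doses were lower than those at the low dose, by a log2FC of -0.18 (adjusted p = 0.0233) and -0.21 (adjusted p = 0.0246). Cideb shares 1136 exon bases with Nop9 on the opposite strand, so that its value is uncertain where reads were counted without strand.

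Counted over the direct comparisons of the doses, 3 of 9 genes were called between the low and middle doses (21.4% of all rows) and 0 were DEGs (7.15% of all rows). Between the low and high doses, 3 genes were called (4.61% of all rows), of which G0s2 and Hsd17b11 were DEGs (1.64% of all rows). Between the middle and high doses, 6 of 9 were called, against 20.0% of all rows, and 4 were DEGs, against 6.73% of all rows. The 6 genes were Plin2, Plin5, Pnpla2, G0s2 and Hsd17b11, all higher at the high dose, and Hsd17b13, which was lower. The remaining Cidea (log2FC 1.42, adjusted p = 0.0711), Cidec (0.57, adjusted p = 0.567) and Cideb (-0.03, adjusted p = 0.766) did not pass. Cidea passed with array weights (1.71, adjusted p = 0.0413) or without 1 of 4 mice, namely middle-dose mouse 5 or 6 or high-dose mouse 4 or 7 (adjusted p from 0.0346 to 0.04999). All 6 calls held whichever mouse was left out.

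Promoter sequence is shown for the 2 DEGs of the high dose and for Hsd17b13, Plin2 and Plin5, the members with a window that held a PPAR half-site. The windows are the 250 bases before a RefSeq start site (GRCm38.p6, minus strand for all 5), less the bases in annotated exons, and are printed 5′ to 3′. Capitals mark AGGTCA, the half-site bound by PPAR and other nuclear receptors, and the CCAAT box, each read on both strands.
Hsd17b11, chr5:104021920-104022046: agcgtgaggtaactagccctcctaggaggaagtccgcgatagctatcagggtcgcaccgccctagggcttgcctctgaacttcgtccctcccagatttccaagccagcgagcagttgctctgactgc
G0s2, chr1:193273218-193273337: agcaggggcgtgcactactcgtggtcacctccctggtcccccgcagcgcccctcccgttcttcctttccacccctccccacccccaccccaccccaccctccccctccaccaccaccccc
Hsd17b13, chr5:103977411-103977638: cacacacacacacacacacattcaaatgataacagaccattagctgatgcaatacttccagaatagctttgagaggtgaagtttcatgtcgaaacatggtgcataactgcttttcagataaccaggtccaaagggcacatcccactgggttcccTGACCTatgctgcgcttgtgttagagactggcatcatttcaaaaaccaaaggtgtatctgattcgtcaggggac
Plin2, chr4:86670061-86670309: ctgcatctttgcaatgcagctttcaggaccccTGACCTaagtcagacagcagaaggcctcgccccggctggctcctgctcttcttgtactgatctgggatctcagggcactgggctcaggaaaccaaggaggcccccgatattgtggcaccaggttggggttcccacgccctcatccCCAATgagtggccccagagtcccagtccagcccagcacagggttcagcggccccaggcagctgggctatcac
Plin5, chr17:56117597-56117798: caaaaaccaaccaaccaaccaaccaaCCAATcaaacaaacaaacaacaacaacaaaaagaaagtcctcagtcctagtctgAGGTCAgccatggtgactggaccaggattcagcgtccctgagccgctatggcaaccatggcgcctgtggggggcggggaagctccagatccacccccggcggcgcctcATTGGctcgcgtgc
The half-site stood 96 bases before the start site in Hsd17b13, 218 in Plin2 (both on the opposite strand) and 170 in Plin5. Another RefSeq start site of Plin5, whose window is not printed (chr17:56117299-56117501), had neither the half-site nor the CCAAT box. Neither Hsd17b11 nor G0s2, the genes that rose at the high dose, held the half-site in the 250 bases. Hsd17b11 had a CCAAT box 115 bases before the start site, among the exon bases that are not printed. The half-site occurred in 14.0% of 32851 RefSeq windows of the same length and the CCAAT box in 33.8%, and a match is no evidence of binding.

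Beyond the dose groups, the genes differed between mice of the same dose, and several did so together. Values were centred on the group mean, and all 36 pairs of the 9 tested genes were compared over 54 mice with permutations within groups. After adjustment over the pairs, 8 passed in both Pearson and Spearman correlation, 6 positive and 2 negative. Cidea and Cidec were the closest pair (r = 0.82, rho = 0.79, permutation p = 1e-05 for each, the smallest possible, adjusted p = 0.00012). Their r was 0.74, 0.96, 0.83 and 0.70 within the groups in dose order, and 0.79 without the 2 mice farthest from the median of Cidea. Plin2 moved with Cidec (r = 0.76, rho = 0.71) and with Cidea (r = 0.75, rho = 0.73; permutation p = 1e-05 and adjusted p = 0.00012 for each). Without the 2 farthest mice, these r values were 0.75 and 0.73. Mice with high Plin2 in a group were thus mostly those with high Cidea and Cidec, such as the 4 mice between 477 and 548 for Plin2 at the low dose, which were also the 4 highest for Cidec. These 4 low-dose mice also had the lowest sums of values in their group (849922 to 885178). Middle-dose mouse 7, highest there for Plin2 and Cidec, likewise had the lowest sum (849928). High-dose mouse 12, highest there for both, did not (997418, with 944620 the lowest). The correlations were not rerun after rescaling to equal sums, so the part of the scaling was not tested.

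**Figure D3:**
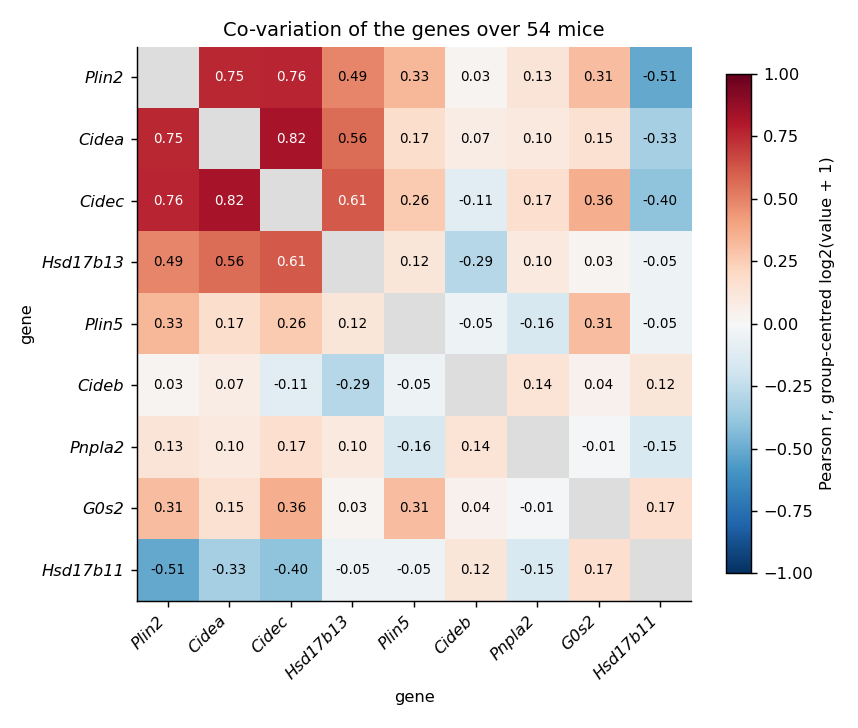
Pearson r between 9 genes over 54 mice, from log2(value + 1) centred on the group means; red is positive and blue is negative. Plin2, Cidea, Cidec and Hsd17b13 form a block with r between 0.49 and 0.82, and Hsd17b11 is negative with Plin2 (-0.51) and Cidec (-0.40).

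Hsd17b13 joined this block, with r = 0.61 to Cidec, 0.56 to Cidea and 0.49 to Plin2 (permutation p = 2e-05, 7e-05 and 0.00064; rho = 0.58, 0.48 and 0.42, adjusted p = 0.00027, 0.00282 and 0.0161). At the low dose these r values were 0.90, 0.89 and 0.84, and at the high dose they were 0.31, 0.35 and 0.07. Whether the groups differed in this respect was not tested. Hsd17b11 ran the opposite way: r was -0.51 to Plin2 (rho = -0.49, permutation p = 8e-05 and 0.00036, adjusted p = 0.00048 and 0.00259) and -0.40 to Cidec (rho = -0.37, permutation p = 0.00442 and 0.00798, adjusted p = 0.0199 and 0.0325). Without the 2 farthest mice they were -0.48 and -0.30. Within the groups in dose order, r was -0.62, -0.75, -0.30 and -0.65 to Plin2, and -0.79, -0.58, -0.04 and -0.71 to Cidec. The weaker r of the middle-dose group was not tested against the other groups. Control mouse 8 illustrates the pattern, being the highest control mouse for Plin2, Cidea, Cidec and Hsd17b13 and the lowest for Hsd17b11 and G0s2. These ranks are of the deposited values, not rescaled to equal sums, and control mouse 8 had the lowest sum of all mice (747258). Without this mouse, r was 0.82 for Cidea with Cidec, 0.59 for Cidec with Hsd17b13 and -0.48 for Plin2 with Hsd17b11. Pnpla2 and G0s2, the lipase and its inhibitor, did not move together (r = -0.01, from -0.24 to 0.14 within the groups).

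**Figure D4:**
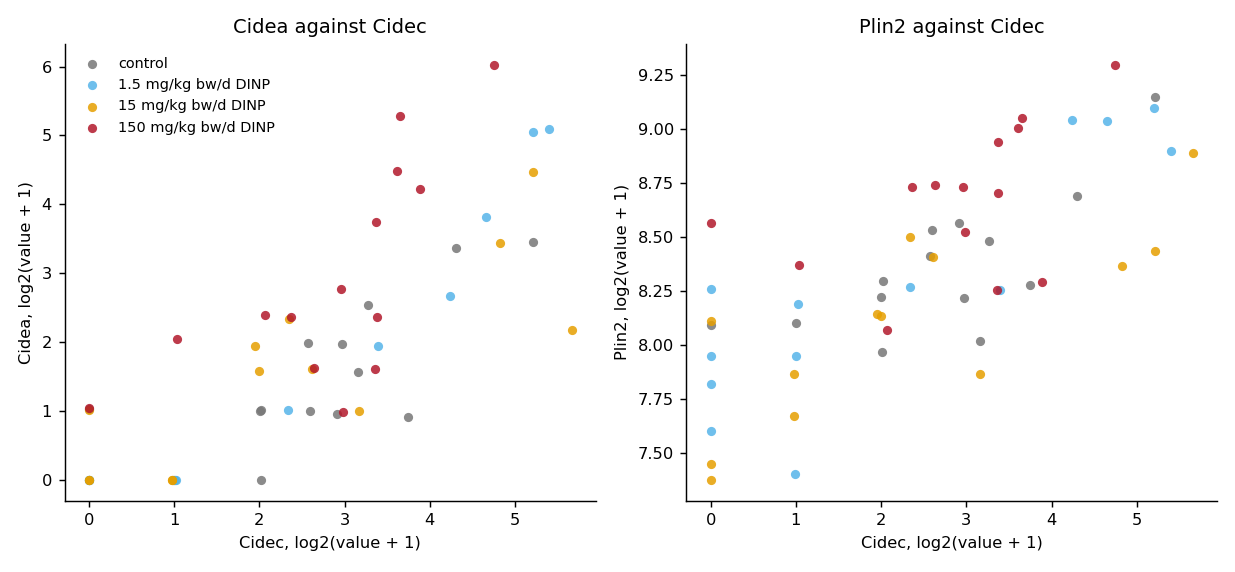
Cidea (left) and Plin2 (right) against Cidec, as log2(value + 1), 1 point per mouse, coloured by group. Both rose with Cidec in every group (Cidea r from 0.70 to 0.96, Plin2 r from 0.47 to 0.87), and many mice with a Cidec of 0 also had a Cidea of 0.

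Among 6923 other genes with a mean of at least 5, Apoa4, an apolipoprotein gene that rises with liver fat, was the closest to Cidec (r = 0.90) and Cidea (r = 0.85), and Anxa2 was the closest to Plin2 (r = 0.83), over 54 mice. Anxa2 encodes a membrane-binding annexin. Next in order were Lgals1 (0.88) and Anxa2 (0.88) for Cidec, Gtf2h5 (0.82) and Apoc2 (0.78) for Cidea, and Apoa4 (0.82) and Tceal8 (0.81) for Plin2. The dose pattern of Apoa4 was a different one: it fell by 1.79 on the log2 scale at the high dose (adjusted p = 0.0072, mean 412 in control mice and 136 at the high dose), where Plin2, Cidea and Cidec had a log2FC of 0.30, 1.44 and 0.16. Within that dose group, Apoa4 still followed Cidec with r = 0.85 and Cidea with r = 0.77.

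Hsd17b11 was closest to Rdh7 (r = 0.74), a retinol dehydrogenase, Eci2 (0.74), a peroxisomal enzyme of fatty acid oxidation, and Akr1c14 (0.72). G0s2 was closest to Vnn1 (0.73), the pantetheinase vanin-1, Gk (0.69), glycerol kinase, and Slc25a10 (0.68), the mitochondrial dicarboxylate carrier. For G0s2 this held in the control and both lower dose groups (Vnn1 r = 0.74, 0.72 and 0.88), while r at the high dose was -0.21. Hsd17b13 was closest to Tgfbi (0.70), Tmsb4x (0.69) and Nap1l1 (0.69). The closest genes to the other members had lower r values: Tbc1d15 (0.57), Dynll2 (0.53) and Map1lc3b (0.53) for Pnpla2, Slc16a1 (0.55), Rtf2 (0.52) and Mtmr4 (0.52) for Plin5, and Tmbim6 (0.56), Cyp2j5 (0.56) and Pafah2 (0.56) for Cideb. These genes were picked for their r, which is given as a description.

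The other genes of lipolysis and of neutral lipid hydrolysis were read beside the members. Of 17 tested, 0 were called at the low dose, 4 rose and 1 fell at the middle dose, and 2 rose at the high dose, with a median log2FC of 0.05, 0.06 and 0.17. Of all tested rows, 1.20%, 14.2% and 2.17% were called in dose order, and these shares apply to the lists below as well. At the middle dose the risers were Aadac (log2FC 0.43, adjusted p = 0.00964), Ces1f (0.39, adjusted p = 0.00406) and Ces1d (0.63, adjusted p = 0.0118), esterases of the endoplasmic reticulum, and the phospholipase Pnpla8 (0.22, adjusted p = 0.0357). Lipa, the lysosomal acid lipase, fell by 0.71 (adjusted p = 0.00845). The high-dose risers were Abhd6, a monoacylglycerol lipase (0.67, adjusted p = 0.000165), and Ddhd2, a triglyceride and phospholipid hydrolase (0.50, adjusted p = 0.00397). Abhd5, the activator of ATGL, had a log2FC of 0.13, 0.07 and 0.15 and was not called. Lipe, another gene of this list, was not called at the high dose against control (0.54, adjusted p = 0.0919). Between the middle and high doses 4 of the 17 rose, among them Lipe (0.82, adjusted p = 0.000688), and 2 fell.

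Genes for making and joining droplets gave 0 calls of 20 at the low dose. At the middle dose, where 14.2% of all rows were called, 3 rose (Vps13a 0.47, Snx14 0.40 and Spast 0.24, adjusted p = 0.00536, 0.00773 and 0.0382). The GTPase Rab8a fell by 0.41 at that dose (adjusted p = 0.00434). At the high dose only Fitm2, which partitions lipid into droplets, rose (0.41, adjusted p = 0.0335). The median log2FC at that dose was 0.00. Of 16 other droplet proteins, 1 rose at each dose: the syntaxin Stx17 at the low dose (0.38, adjusted p = 0.0406), the sterol enzyme Lss at the middle dose (0.46, adjusted p = 0.0448) and the retinol dehydrogenase Rdh16 at the high dose (0.60, adjusted p = 0.0179). Among 12 regulators of lipophagy and lysosomes, the autophagy kinase gene Ulk1 fell by 0.51 at the middle dose (adjusted p = 0.000892) and by 0.39 at the high dose (adjusted p = 0.0331), and Lamp2 rose at the middle dose (0.28, adjusted p = 0.00329).

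PPARalpha targets formed the group with the most calls at the high dose. Of 20 tested, 12 rose and 0 fell at the high dose, where 2.17% of all rows were called, with a median log2FC of 0.76. Those with the smallest p were Ehhadh (log2FC 1.54, adjusted p = 1.13e-13), a peroxisomal oxidation enzyme, the lipoprotein lipase inhibitor Angptl4 (1.47, adjusted p = 9.84e-09), the fatty acid hydroxylases Cyp4a31 (1.73, adjusted p = 4.97e-08) and Cyp4a10 (1.76, adjusted p = 3.25e-06), Retsat (1.14, adjusted p = 8.32e-07) and Acot1 (1.54, adjusted p = 1.47e-06). The genes called at the middle dose included Angptl4 and Fabp1, which rose, and Acadm, which fell, and at the low dose 0 were called. Of all rows, 14.2% were called at the middle dose and 1.20% at the low dose. Within groups, the median r of these 20 genes was 0.46 with G0s2, 0.21 with Hsd17b11 and 0.01 with Pnpla2. With the other members it was 0.21 (Cidec), 0.19 (Hsd17b13), 0.18 (Plin5), 0.15 (Plin2), 0.12 (Cidea) and 0.08 (Cideb). Of 11 tested genes known to rise with liver fat, only Apoa4 was called against control, at the high dose, and the median log2FC of the list was -0.25, -0.14 and -0.07 in dose order. From the low to the high dose (4.61% of all rows called), 3 rose and 0 fell: Mogat1 (1.20, adjusted p = 0.0283), Vldlr (0.61, adjusted p = 0.0143) and Cd36 (1.07, adjusted p = 0.0206). From the middle to the high dose (20.0% of all rows called), 2 rose and 1 fell. These were Mogat1 (1.06, adjusted p = 0.0209), Vldlr (0.46, adjusted p = 0.0323) and the falling Apoa4 (adjusted p = 0.0353). Across mice of the same dose, the median r of this list was 0.71 with Cidec, 0.69 with Cidea, 0.67 with Plin2, 0.54 with Hsd17b13 and -0.32 with Hsd17b11.

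Markers of other cell types and of the time of day were read beside these results. Adipocyte genes bear on Cidea, and of 4 tested markers Cfd, which encodes adipsin and is also made elsewhere, rose at the high dose (log2FC 2.07, adjusted p = 0.00335, mean 4.76 in control mice and 24.4 at the high dose). Fabp4, another of the 4, had a log2FC of -0.68 at this dose and was not called (adjusted p = 0.146, mean 24.1 and 14.8). The adipocyte-defining Adipoq was above 0 in 2, 3, 2 and 1 mice and at most 3.13, Lep was above 0 in 1 of 54 mice, and the list summed to 33.4 to 76.3 in control mice and 38.8 to 107.5 at the high dose. Pde3b, from the same list, rose at the middle dose (0.23, adjusted p = 0.0426). Lipe, the last of the 4, had a log2FC of 0.54 at the high dose and was not called (adjusted p = 0.0919). Neither macrophage markers (9 tested) nor stellate and fibroblast markers (7 tested) gave a call at any dose against control. The median log2FC of the stellate and fibroblast markers was nevertheless -0.51 at the high dose (Col1a1 -0.63, adjusted p = 0.461), against -0.01 for all rows, and Lum was lower at the high than at the middle dose (-0.78, adjusted p = 0.0068). These markers ran with the block of Plin2, Cidea, Cidec and Hsd17b13 over mice of the same dose, with a median r of 0.57, 0.47, 0.61 and 0.49, and the hepatocyte markers had a median r of -0.47 with Plin2. The summed stellate list ranged from 126.5 to 411 in control mice and from 128 to 209 at the high dose, and its part in the correlations was not tested.

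Of 12 tested clock genes, 4 rose at the middle dose, where 14.2% of all rows were called (Nr1d2 0.42, Per3 0.75, Usp2 1.37 and Dbp 1.00, adjusted p = 0.00158, 0.00557, 0.00895 and 0.0125), and 0 were called against control at the other doses. The other 8 were not called against control, among them Cry1 (-0.27), Hlf (-0.08) and Nr1d1 (-0.04). The list summed to 91.7 to 339.8 in control mice, and to 181 to 323 in the middle-dose group. Its part in the changes of Plin5, Hsd17b13 and the lipases at this dose was not tested. Ttr, a hepatocyte marker, rose at the middle dose as well (0.42, adjusted p = 0.0231), and Pecam1, 1 of 9 tested endothelial markers, fell by 0.52 (adjusted p = 0.000867). None of the 9 tested genes of the fasting and insulin response was called at any dose against control. Between doses, Pdk4 was higher at the high dose than at the low dose (1.04, adjusted p = 0.0092) and the middle dose (0.97, adjusted p = 0.00404). Srebf1 rose from the low to the middle dose (0.48, adjusted p = 0.0197) and fell from the middle to the high dose (-0.46, adjusted p = 0.0218).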

How the data were processed

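Liver RNA of 54 mice was measured by the authors with QuantSeq 3′ mRNA-Seq libraries, and their reads were processed with nf-core/rnaseq (STAR, RSEM, Salmon) on GRCm38. The deposited values are a signal: each value of a mouse divided by 1 step (0.764 to 1.11) is a whole number, these whole numbers sum to 948342 to 980641, and the signal was read as TPM rounded by the authors and divided by size factors. Since the table keeps no read depth, no count test was run, and the precision of single values is unknown.

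Groups came from the labels, and each mouse was 1 replicate. Rows with a mean of at least 1 (11431 of 20162) entered 1 limma model of the 4 groups (limma 3.58.1 in R 4.3.3; eBayes with an intensity trend) on log2(value + 1), with 6 contrasts and Benjamini-Hochberg adjustment. A call had an adjusted p under 0.05, and a DEG also a log2FC beyond 0.5. Fold changes are on the log2(value + 1) scale and understate those of low genes. Pair correlations used 100000 permutations within groups. The script was tested on simulated data. Alternatives were pseudocounts of 0.1 and 5, no filter or a mean of at least 5, quantile normalization, rescaling to equal sums, 2 groups alone, array weights, robust eBayes, a replicate block and leaving out each mouse.

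The members, the gene lists and their tests were chosen with earlier results of these data known. The text names all members, at most 6 called genes of each of 13 lists by smallest p (others named were chosen after their values were seen), and the 3 genes nearest to each member. A called gene of the lists is not reported here. Positions are from GENCODE M21, and promoters from RefSeq (GRCm38.p6). The motifs were searched in the promoters of all members but Cidea, which was set aside and is not shown.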

Additional observations from a re-analysis of the deposited data

How the results depend on the processing

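The count of called members was within 1.5 times that of the report for all 6 comparisons under pseudocounts of 0.1 and 5, a minimum mean of 5, rescaling to equal sums, 2 groups alone and robust eBayes. Exceptions under the other settings were 1 gene called in place of 2 against control at 150 mg/kg bw/d without a filter, where G0s2 was lost, and 1 in place of 3 between 1.5 and 15 mg/kg bw/d under quantile normalization and under array weights. Leaving out 1 mouse gave 1 to 3 calls at 150 mg/kg bw/d against control, with 1 call without control mouse 8, control mouse 9 or high-dose mouse 4, which removed G0s2. The low-dose group alone held 13 pairs with r beyond 0.5, against 6 for all mice. Each of the other groups alone also held more than 6 such pairs, but within 1.5 times that count. A fixed r is passed more easily in the few mice of 1 group than in all mice. Over all alternatives, 607 of the log2FC values kept direction and side of the threshold, 13 lost and 12 gained a call, and 16 changed sign, none of which was called. A like count can hold other genes: after rescaling, Hsd17b13 between 1.5 and 15 mg/kg bw/d was lost (adjusted p = 0.0559) and Plin5 was gained (-0.36, adjusted p = 0.0411), as it was at a minimum mean of 5 (-0.31, adjusted p = 0.0430).

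The sign changes were of values near 0. For Cidea against control, log2FC was -0.92 at 1.5 and -0.33 at 15 mg/kg bw/d with a pseudocount of 0.1, -0.0051 and -0.21 with array weights, and -0.024 at 15 mg/kg bw/d after rescaling. Between 1.5 and 15 mg/kg bw/d, Cidea was at 0.59 with a pseudocount of 0.1 and 0.020 under quantile normalization, and Cidec at -0.31 with array weights. Leaving out 1 mouse at a time moved Cidea from -0.28 to 0.17 at 1.5 mg/kg bw/d, from -0.23 to 0.17 at 15 mg/kg bw/d and from -0.25 to 0.30 between these doses. The ranges were -0.14 to 0.0051 for Plin2 and -0.026 to 0.059 for Pnpla2 at 1.5 mg/kg bw/d, -0.20 to 0.17 for G0s2 at 15 mg/kg bw/d, and for Cidec -0.045 to 0.38 at 150 mg/kg bw/d and -0.17 to 0.38 between 1.5 and 15 mg/kg bw/d. The cause of these changes was not tested.

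Replicate numbers do not pair the mice: over 79 pairs with the same number, the deviations from the group means had a mean r of 0.00 (from -0.36 to 0.24), and 3 of 54 mice correlated best with their own number. With the replicate number as a block, 0, 3 and 2 members were called against control in dose order, and 3, 3 and 6 between doses, as without it. The table keeps no depth, so that the sampling error of low genes such as Plin4 and Cidea is unknown.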
